A study of Homo sapiens with 40 samples.

Results

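Polysome-bound RNA was compared with total RNA in unstimulated BEAS-2B cells that carried a hairpin against IGF2BP3, in 10 of the 40 libraries of the series. BEAS-2B is an immortalised human bronchial epithelial line, and IGF2BP3 is an RNA-binding protein that recognises N6-methyladenosine (m6A) and other features of mRNAs. The method, Frac-seq, sequences total RNA (called input) and the RNA that sediments with polyribosomes (called polysome). The 2 groups were 5 polysome and 5 input libraries of the shIGF2BP3 line, kept in medium with 10% serum, starved overnight in 2% serum and given no cytokine. Beside them stood 10 unstimulated libraries of the shControl line and 10 libraries of the shIGF2BP3 line given IL-13 at 100 ng/ml, again 5 from each fraction. All cells in these groups, controls included, carried a stably expressed hairpin and had been starved, and each hairpin was held by 1 line, so the hairpin and any other difference between the lines cannot be told apart. Column names of the deposited data carry siC and siIGF2BP3, although the protocol is of lines with a stable hairpin.

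An mRNA that is being translated carries several ribosomes at once, and such polysomes sediment faster in a sucrose gradient than single ribosomes or free ribonucleoprotein. The number of ribosomes on an mRNA depends on how often translation starts, on how fast ribosomes move and on how long the coding sequence is. RNAs held in the nucleus, inside mitochondria or in repressed particles are found in total RNA and are largely missing from polysomes. The comparison within 1 line therefore asks which RNAs were over- or under-represented on polysomes relative to the total pool.

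Values are CPM, which are counts divided by the scaled size of their library, and a difference is the log2 fold change of polysome over input with its standard error (SE). A gene was called higher or lower at an adjusted p under 0.05. Every difference is relative to the other RNAs of the same fraction, since the libraries hold no reference for the amount of RNA. The protocol names library kits from different makers and does not say which libraries each served. Whether polysome and input shared a kit is not stated, and the part of the kit in the differences was not tested. In bulk RNA, fewer cells with an mRNA on polysomes and fewer polysome-bound copies per cell cannot be told apart.

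Input libraries held between 15533925 and 34260970 estimated counts. Polysome libraries were shallower and less even, with 3980588, 18868715, 18232512, 24922300 and 1816848 counts in replicates 1 to 5, so 1 count was worth 0.249 CPM in replicate 1, 0.489 CPM in replicate 5 and as little as 0.0469 CPM in a deeper one. The targeted gene did not separate the lines. IGF2BP3 stood at 24.9 ± 3.02 CPM (SD, n = 5) in input of the knockdown line and at 35.2 ± 11.3 CPM in input of the control line, a log2 difference of -0.43 (two-sided exact permutation test, p = 0.103, adjusted over both fractions p = 0.206). In polysome libraries the means were 11.2 and 11.2 CPM (exact permutation p = 0.976). Leaving out each library in turn gave differences in input of -0.60 to -0.30, with unadjusted exact permutation p of 0.0159 to 0.206 over 10 comparisons. The -0.60 and the p of 0.0159 came without replicate 1 of the control line.

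The libraries separated by fraction in what they were made of. Tested coding genes were ordered by coding length and cut into 10 groups of equal size, called deciles. Coding sequences of the third and the fourth decile took 28.0% to 33.1% of the counts in polysome and 19.1% to 20.0% in input. Those of the longest decile took 2.45% to 2.85% and 8.39% to 9.13%. Mitochondrially encoded mRNAs took 0.149% to 0.795% in polysome against 2.81% to 5.28% in input. Proteasome subunit mRNAs took 1.08% to 1.47% against 0.510% to 0.620%. The 2 groups did not overlap in any of these 4 shares, while for cytosolic ribosomal protein mRNAs polysome replicate 5, at 7.07%, lay within the input range of 6.70% to 7.71%.

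**Figure D1:**
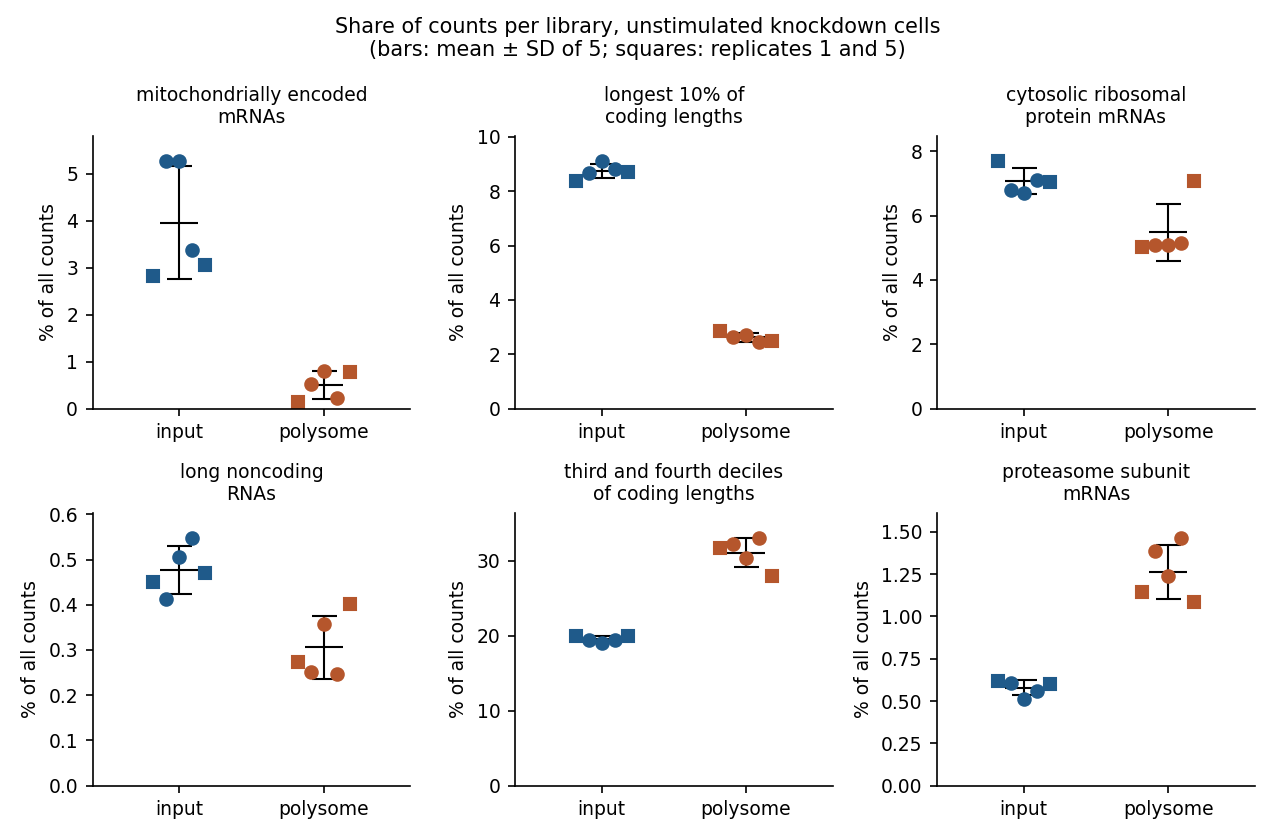
Share of all counts (%, vertical axis) taken by 6 kinds of RNA in each of the 5 input and 5 polysome libraries of unstimulated knockdown cells; bars are the mean ± SD and squares are replicates 1 and 5. Mitochondrially encoded mRNAs fell from 2.81% to 5.28% in input to at most 0.795% in polysome, and the proteasome subunit share was at least 1.08% in polysome against at most 0.620% in input.

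Of 16735 genes tested, 2750 (16.4%) were higher and 3686 (22.0%) were lower in polysome than in input, with a median log2 fold change of -0.20 over all of them. The 5 polysome libraries all lay above the 5 input libraries for 1947 genes (11.6%) and all below them for 3289 genes (19.7%). Nuclear-encoded coding genes made up most of both directions, with 2668 higher (19.9%) and 3195 lower (23.8%) of 13428. Of 1912 long noncoding RNAs, 28 were higher (1.46%, against 16.4% of all genes) and 264 lower (13.8%, against 22.0%), with a median of -0.64. Of 666 pseudogenes, 35 were higher (5.26%) and 98 lower (14.7%). In both classes the share lower was under that of all genes. Other noncoding RNAs gave 0 higher and 17 lower of 42 (40.5%).

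Among the most enriched genes with at least 20 CPM and no overlap between the groups were enzymes and complex subunits with short coding sequences. PRDX1, a peroxiredoxin that removes hydrogen peroxide, measured 499, 612, 409, 415 and 539 CPM in the input libraries and 1430, 2609, 1812, 3866 and 1358 CPM in the polysome libraries. All polysome values lay above all input values, and the fitted difference was 2.16 ± 0.25 (adjusted p = 6.32e-09). SRSF3, a serine- and arginine-rich splicing factor, rose from 214 ± 28 CPM to 935 ± 345 CPM (SD, n = 5 each), a log2 fold change of 2.13 ± 0.26. U2AF1, the small subunit of the factor that reads the 3′ splice site, rose by 2.02 ± 0.39. The proteasome core subunits PSMA2 and PSMA3 rose by 2.03 ± 0.22 and 1.97 ± 0.24. ARF4, a small GTPase of the Golgi, went from 189 ± 9.3 CPM to 707 ± 199 CPM, and UBE2T, a ubiquitin-conjugating enzyme, from 80.9 ± 7.14 CPM to 321 ± 94.3 CPM. SSBP1, which binds single-stranded mitochondrial DNA, DPM1, which makes dolichol-phosphate mannose, and TRAPPC4, a subunit of a vesicle tethering complex, rose by 2.01 ± 0.18, 1.98 ± 0.19 and 2.09 ± 0.34. The largest positive difference under this rule was that of NECAP1, a protein of clathrin-coated vesicles, at 2.61 ± 0.58, from a low level. NECAP1 measured 3.23, 17.8, 5.18, 4.54 and 3.63 CPM in input and 29.7, 40.1, 34.2, 47.8 and 58.7 CPM in polysome, and replicate 2 was the high one in input, without which the difference was 3.33. ENSG00000272772, a gene with no symbol in the names used, rose by 2.23 ± 0.29.

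Of the 12 most depleted genes with at least 20 CPM and no overlap between the groups, 11 encode very large proteins, and the other was the short mitochondrial MT-ND4L, described below. PRKDC, the catalytic subunit of the DNA-dependent protein kinase, measured 574, 343, 498, 484 and 491 CPM in input and 4.49, 14.9, 12.5, 11.8 and 15.2 CPM in polysome. Every polysome library was far below every input library, and the difference was -5.34 ± 0.39 (adjusted p = 2.03e-13). PRPF8, the central protein of the spliceosome, fell from 795 ± 71.5 CPM to 30.1 ± 10.6 CPM (log2 fold change -4.70 ± 0.32). HUWE1, a HECT-type ubiquitin ligase, varied little between replicates, with 396 ± 14 CPM and 17.6 ± 1.92 CPM and a difference of -4.48 ± 0.30. HERC2, another HECT-type ligase, fell by 4.29 ± 0.39, and the chromatin remodeller EP400 fell by 4.29 ± 0.39. KMT2D, a histone methyltransferase, and MDN1, a very large AAA ATPase of ribosome assembly, measured 2.83 ± 2.59 CPM and 1.12 ± 0.884 CPM in polysome against 81.2 ± 15 CPM and 33.2 ± 6.37 CPM in input. DNMT1, the maintenance DNA methyltransferase, stood at 128, 136, 139, 132 and 126 CPM in input and at 0, 5.84, 0, 17.2 and 3.42 CPM in polysome, so replicates 1 and 3 were listed at 0. The difference was -4.49 ± 0.73, and -5.76 without polysome replicate 4. The autophagy gene EPG5, AHNAK2 and the centrosomal gene CEP192 fell (log2 fold changes -4.29 ± 0.91, -4.39 ± 0.66 and -5.13 ± 0.92), again with 1 or more polysome libraries at 0. Without the highest polysome library, CEP192 stood at -7.13 (without replicate 2), and EPG5 at -5.08 and KMT2D at -5.37 (each without replicate 4).

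Some lower genes were listed at 0 in every polysome library. There were 61 of these among the genes called lower, and 17 genes called higher were at 0 in every input library. GOLGB1, which encodes a giant Golgi coiled-coil protein, measured 0, 23.8, 3.23, 19.2 and 22.1 CPM in input. Counted against a floor of 3 counts over the polysome group, it was at least 285-fold lower in polysome. Its call was lost with voom (adjusted p = 0.254). GOLGB1 was itself at 0 in input replicate 1, so the values of this gene are uneven in the total pool too.

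**Figure D2:**
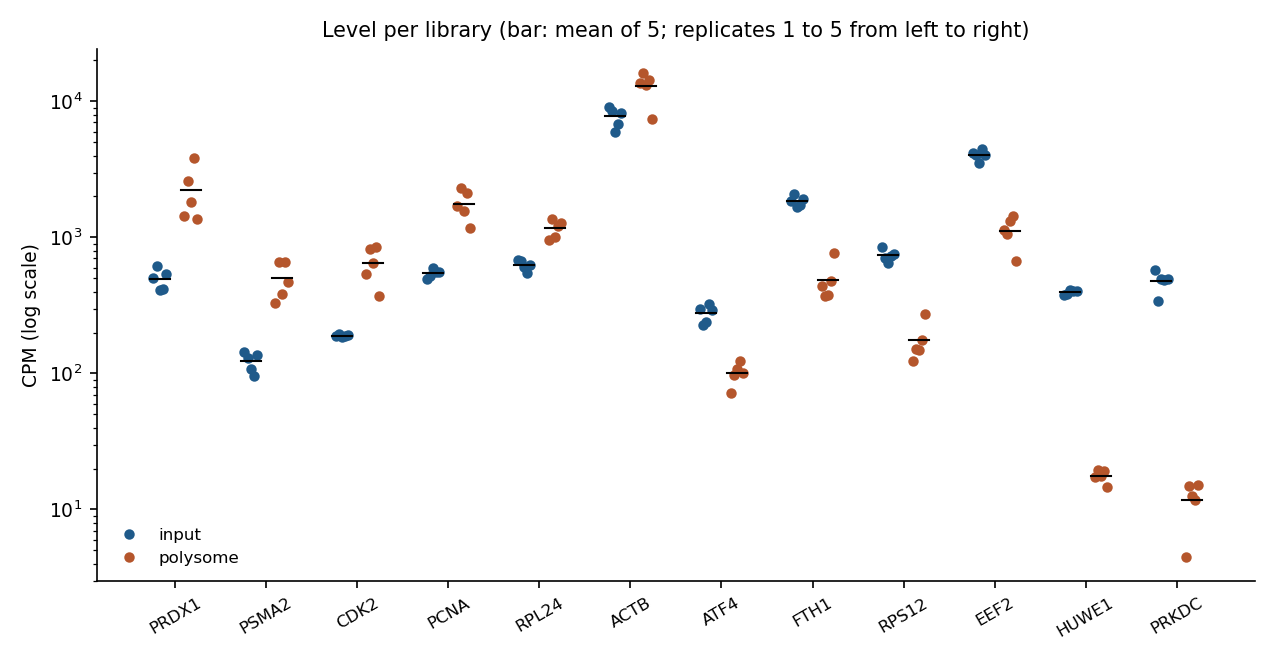
Level in CPM (log scale) of 12 genes in each input and polysome library of unstimulated knockdown cells; bars are the means of 5 libraries. For PRKDC all 5 polysome libraries lie at or below 15.2 CPM and all input libraries at or above 343 CPM, while ACTB has 1 polysome library, replicate 5, at 7366 CPM, inside the input range.

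Of 5 properties compared, coding length went with the differences most closely. Across 13428 coding genes, Spearman's rho between coding length and the log2 fold change was -0.435, against -0.365 for the length of the whole transcript, -0.107 for the untranslated part, 0.052 for GC content and 0.033 for the input level. These are descriptions across genes, which are not independent replicates and share the same 10 libraries. The part of the library kit in the relation to length was not tested. The relation was not monotonic. Median differences over the deciles of coding length were -0.26 (32 to 516 nt), 0.40, 0.68, 0.58, 0.30, 0.09, -0.19, -0.46, -0.81 and -1.63 (3429 to 26769 nt). In the third decile, from 735 to 951 nt, 44.3% of the genes were higher and 7.85% lower. In the longest decile 0.298% were higher and 67.2% were lower. At the short end the differences turned down again, with a median of -1.08 for coding sequences up to 200 nt, -0.70 from there to 300 nt and -0.30 to 400 nt, and the median passed 0 between 400 and 500 nt. From 732 nt on, rho was -0.596 over 10751 genes.

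The untranslated part added less and only in the middle of the range. For coding lengths of 735 to 951 nt, the median was 0.88 in genes with the least untranslated sequence (up to 668 nt) and 0.34 in genes with the most (2691 nt or more). For coding lengths of 3429 nt and over the same medians were -1.65 and -1.52. The medians of control cells and of knockdown cells given IL-13, from libraries not used for the values above, followed the same course over the deciles, with 0.65 and 0.65 in the third decile and -1.74 and -1.59 in the longest.

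**Figure D3:**
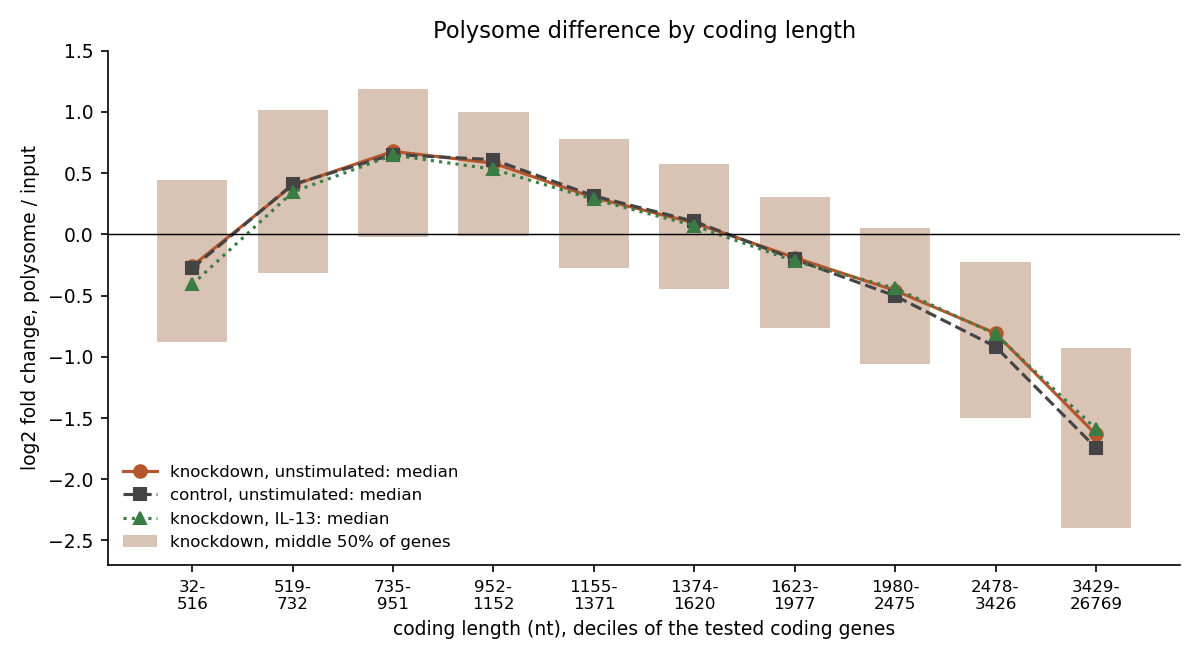
Median log2 fold change of polysome over input (vertical axis) in deciles of coding length (nt, horizontal axis) for unstimulated knockdown, unstimulated control and IL-13-treated knockdown cells; boxes span the middle 50% of genes in unstimulated knockdown cells. Medians peak at 0.68 between 735 and 951 nt and reach -1.63 from 3429 nt on.

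Mitochondrially encoded mRNAs are read by ribosomes inside the organelle, and 12 of the 13 were lower (92.3%, against 22.0% of all genes), with a median of -3.27. MT-CO2, a subunit of cytochrome c oxidase, measured 3608, 4912, 4879, 3612 and 3399 CPM in input and 71.8, 558, 773, 102 and 896 CPM in polysome. All 5 polysome libraries were below all input libraries (difference -3.09 ± 0.51), and replicates 1 and 4 were the lowest. The largest differences were those of MT-ND4L, a complex I subunit, at -4.54 ± 0.57 and MT-ATP8, a subunit of ATP synthase, at -4.21 ± 0.60. MT-CO1, another subunit of cytochrome c oxidase, fell by 2.54 ± 0.42. MT-ND6, the only one read from the other strand of the mitochondrial genome, was low and uneven, with 14.7 ± 14.6 CPM and 5.01 ± 6.79 CPM, and did not pass the test (-1.49 ± 1.05, adjusted p = 0.28, and -3.02 without polysome replicate 3, adjusted p = 0.0589). Nuclear copies of mitochondrial sequence exist as pseudogenes, and how the estimates split reads between copies is uncertain.

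Among 9 tested long noncoding RNAs known to stay in the nucleus or to act at chromatin, 2 were lower (4 without input replicate 2) and 0 higher, with a median of -0.69. The share lower, 22.2%, was that of all genes, 22.0%. NEAT1, the scaffold of paraspeckles, measured 52.9, 68.6, 116, 118 and 68.9 CPM in input and 31.2, 14.7, 27.4, 17.3 and 21 CPM in polysome, without overlap (-1.94 ± 0.40, adjusted p = 0.000151). MALAT1, a transcript of nuclear speckles, measured 69.6, 84.8, 57.5, 53.8 and 76.8 CPM in input and 5.74, 15.1, 9.88, 12.8 and 76.3 CPM in polysome. Polysome replicate 5 was within the input range and the other 4 were far below it, and the difference was -1.61 ± 0.53 (adjusted p = 0.0145), or -2.50 without that library. Host transcripts of small nucleolar RNAs, many of whose spliced products are degraded when ribosomes meet an early stop codon, were lower in 8 of 15 (53.3%, against 22.0%) and higher in 0, with a median of -1.74. Among them GAS5 fell from 56.1 ± 5.83 CPM to 13.7 ± 3.08 CPM and SNHG6 from 40.5 ± 3.29 CPM to 9 ± 2.07 CPM. ZFAS1, at lower levels, fell by 2.62 ± 0.53, and stood at -3.58 without polysome replicate 2.

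The translation machinery itself was split. Genes for cytosolic ribosomal proteins, elongation factors and several initiation factors carry a terminal oligopyrimidine (TOP) tract, a C followed by a run of pyrimidines at the very start of the mRNA, through which growth signals set their translation. The first 20 bases from the RefSeq start (GRCh38.p14) are shown for 5 such genes that were lower and 3 that were higher in polysome, with the opening pyrimidine run in capitals.
EEF2: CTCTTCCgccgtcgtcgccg
EEF1A1: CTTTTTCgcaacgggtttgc
TPT1: CTTTTCCgcccgctcccccc
RPS12: CTCTTTCCCTgccgccgccg
RPLP1: CCCCTTTCCTCagctgccgc
RPL24: CTTTCTTTTCgccatctttt
FAU: CTCTTTCTCgactccatctt
RPL7A: CTTTCTCTCTCCTCCCgccg
EEF2 lies at chr19:3985444-3985463 on the minus strand, EEF1A1 at chr6:73521013-73521032 (minus), TPT1 at chr13:45341164-45341183 (minus), RPS12 at chr6:132814569-132814588 (plus) and RPLP1 at chr15:69452818-69452837 (plus). RPL24 lies at chr3:101686699-101686718 (minus), FAU at chr11:65122115-65122134 (minus) and RPL7A at chr9:133348218-133348237 (plus), each in the first exon. The opening pyrimidine runs were 7, 7, 7, 10 and 11 bases long in the first 5 genes and 10, 9 and 16 in the last 3. These genes are examples, and the part of run length was not tested.

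EEF2, which moves the ribosome along by 1 codon, measured 4149, 4019, 3547, 4494 and 4003 CPM in input and 1132, 1062, 1311, 1426 and 667 CPM in polysome. The groups were far apart in every library, with a difference of -1.85 ± 0.17 (adjusted p = 3.14e-11). EEF1A1, which brings aminoacyl-tRNA to the ribosome, went from 7694 ± 374 CPM to 2302 ± 781 CPM (-1.74 ± 0.23). TPT1, a TOP mRNA for a small tumour-associated protein, fell by 1.06 ± 0.18. Of the 11 genes listed as elongation and release factors, TPT1 among them, 5 were lower (45.5%, against 22.0% of all genes) and 2 higher. The higher ones were ETF1, the factor that reads stop codons, at 0.99 ± 0.27, and EEF1D at 0.50 ± 0.20 (adjusted p = 0.0437), which did not keep its call in 9 of the 10 fits that left out 1 library.

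All 79 cytosolic ribosomal protein genes were tested, 38 were lower (48.1%, against 22.0% of all genes) and 8 higher (10.1%, against 16.4%), with a median of -0.41. The 8 became 5 without input replicate 3 or polysome replicate 2, and 13 without polysome replicate 5. Within the list, longer coding sequences went with higher values, with a Spearman's rho of 0.665 across the 79 genes, as a description. All 9 with coding sequences up to 300 nt were lower, and 21 of 29 above 300 and up to 450 nt. Above 450 and up to 600 nt 5 of 19 were lower and 3 higher, and above 600 nt 3 of 22 were lower and 4 higher. RPL41, the smallest, with a coding sequence of 75 nt, measured 2147, 1744, 1641, 1775 and 1776 CPM in input and 278, 288, 251, 399 and 446 CPM in polysome, a difference of -2.45 ± 0.23. RPS29 (168 nt) fell by 2.17 ± 0.26 and RPS12 (396 nt) fell by 2.08 ± 0.19. RPLP1 (342 nt), a protein of the ribosomal stalk, fell by 1.76 ± 0.19. RPL24 measured 679, 673, 602, 543 and 628 CPM in input and 951, 1366, 1008, 1216 and 1285 CPM in polysome, all polysome libraries being above all input libraries (0.90 ± 0.15). RPL15 rose from 1306 ± 109 CPM to 2224 ± 231 CPM. FAU, which encodes a ribosomal protein fused to a ubiquitin-like domain, rose by 0.57 ± 0.19, and RPL7A by 0.42 ± 0.14 with groups that overlapped. The call for FAU was lost without input replicate 3 (adjusted p = 0.0552), and that for RPL7A without polysome replicate 2 or 4 (adjusted p = 0.0534 and 0.10). Ribosomal protein genes have many processed pseudogenes, so the estimates of single members are uncertain.

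Over all 27305 promoters of the RefSeq table, 4.04% began with a C and 4 further pyrimidines. Among tested coding genes with such a start, 17.3% of 583 were higher and 29.8% lower, with a median of -0.20. Among 10152 with another start, 20.6% were higher and 24.4% lower, with a median of -0.10. Of the 63 ribosomal protein genes matched to the table, 43 began this way, of which 24 were lower and 4 higher. Of the other 20, 6 were lower and 3 higher. Of 10 genes matched from the list of elongation and release factors, the 3 with this start, EEF2, EEF1A1 and TPT1, were all lower. Of the other 7, 2 were lower and 1 higher. Of 29 initiation factors matched, 7 had this start, of which 2 were lower and 2 higher. Among the other 22, 4 were lower and 10 higher. Relative to the medians of their deciles of coding length, all coding genes with this start had a median of -0.1. Those with another start had one of 0.013. These counts were not tested. A match describes the annotated start only, since start sites in these cells were not measured.

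Among initiation factors 14 of 37 were higher (37.8%, against 16.4% of all genes) and 9 lower (24.3%, against 22.0%), with a median of 0.34. EIF2S2, the beta subunit of the factor that carries the initiator tRNA, rose from 119 ± 10.4 CPM to 363 ± 159.9 CPM (1.60 ± 0.36). EIF6, which keeps the large ribosomal subunit from joining too early, rose by 1.52 ± 0.22. The scaffold proteins EIF4G1 and EIF4G3, with coding sequences of 4797 and 4755 nt, fell (log2 fold changes -2.81 ± 0.23 and -2.92 ± 0.30). PABPC1, the cytoplasmic poly(A)-binding protein, measured 1269, 1353, 1360, 1217 and 1420 CPM in input and 125, 289.9, 168, 191 and 637 CPM in polysome, a difference of -2.24 ± 0.32 and -2.05 relative to the median of its decile of coding length. Polysome replicate 5 was the highest for PABPC1 and still below every input library. Cytosolic aminoacyl-tRNA synthetases, which load amino acids onto tRNA, were lower in 12 of 22 (54.5%, against 22.0%) and higher in 2, with a median of -0.90. Relative to the medians of their deciles of coding length it was -0.39. AARS1 fell by 2.63 ± 0.38 with polysome replicate 5 listed at 0, and QARS1 fell by 1.29 ± 0.24. AIMP2, a scaffold of the synthetase complex, and YARS1 were the 2 that rose, by 1.50 ± 0.18 and 1.10 ± 0.32.

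**Figure D4:**
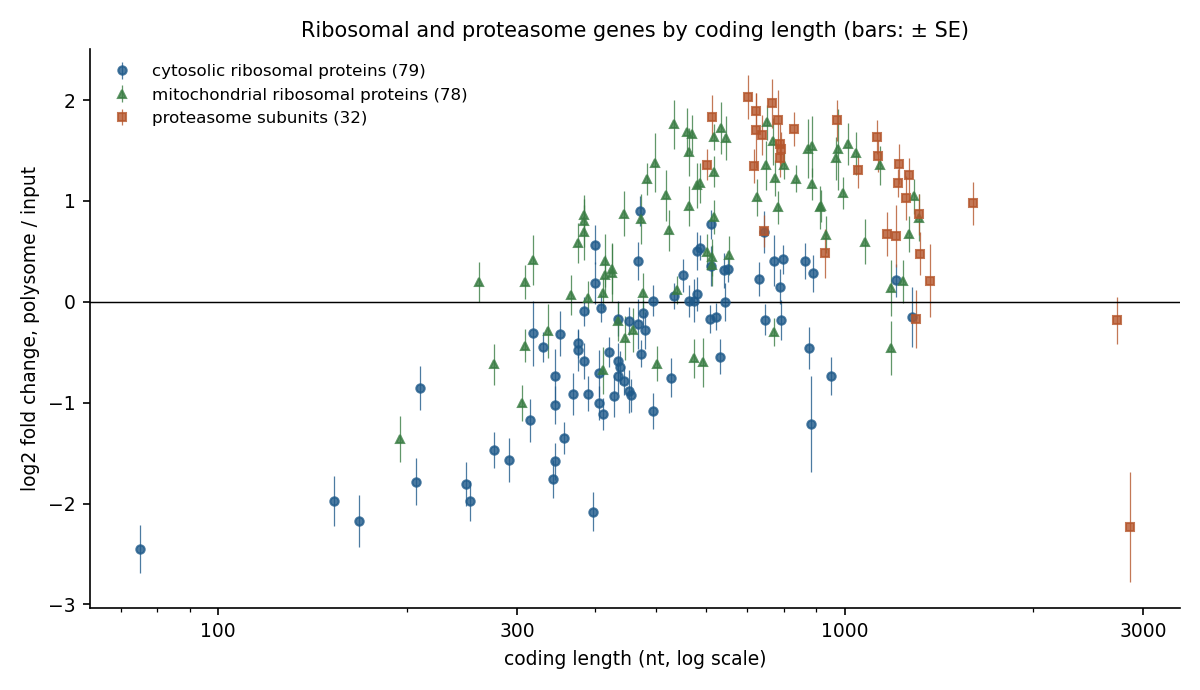
Log2 fold change of polysome over input ± SE (vertical axis) against coding length in nt (log scale) for 79 cytosolic ribosomal protein, 78 mitochondrial ribosomal protein and 32 proteasome subunit genes. Cytosolic ribosomal protein genes up to 300 nt are all below 0, and most proteasome subunits lie above 0, with PSMD1 at -2.23.

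Proteasome subunits, the parts of the barrel and cap that degrade ubiquitinated proteins, were mostly higher. Of 32 subunits 25 were higher (78.1%, against 16.4% of all genes) and 1 lower, with a median of 1.35, against 0.88 after the median of each gene's decile of coding length was taken off. PSMB3 measured 326, 293, 221, 257 and 271 CPM in input and 805, 1083, 1001, 1444 and 546 CPM in polysome, with every polysome library above every input library (1.84 ± 0.21). PSMA7, the subunit of highest TPM in input, rose by 0.70 ± 0.16, which is 0.02 relative to its decile of coding length. The lower one was PSMD1, the largest subunit of the cap, with a coding sequence of 2859 nt, at 98 ± 19.3 CPM in input and 20.9 ± 13.6 CPM in polysome (-2.23 ± 0.55).

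Mitochondrial ribosomal proteins are made in the cytosol, unlike the mRNAs their ribosomes read. Of 78 such genes 47 were higher (60.3%, against 16.4% of all genes) and 8 lower, with a median of 0.81 and a median of 0.54 relative to coding length. The 8 lower genes became 5 without input replicate 1 or polysome replicate 2, and 4 without polysome replicate 1. MRPL16 measured 75.2, 82.3, 72.5, 72.9 and 75.4 CPM in input and 213, 298, 255, 328 and 203 CPM in polysome (1.78 ± 0.17), with no overlap. MRPL13 rose by 1.76 ± 0.25. The members that fell most were short, MRPL33 (195 nt) at -1.36 ± 0.22 and MRPL57 (306 nt) at -1.01 ± 0.18. Nuclear-encoded subunits of the respiratory chain and ATP synthase were more divided, with 28 of 75 higher (37.3%) and 16 lower (21.3%, near the 22.0% of all genes) and a median of 0.07. The complex I subunits NDUFV1 and NDUFS3 rose by 1.63 ± 0.21 and 1.55 ± 0.17. UQCR11, a complex III subunit with a coding sequence of 168 nt, fell by 1.98 ± 0.30, and NDUFS1, the largest of the complex I core subunits, fell by 1.78 ± 0.17.

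**Figure D5:**
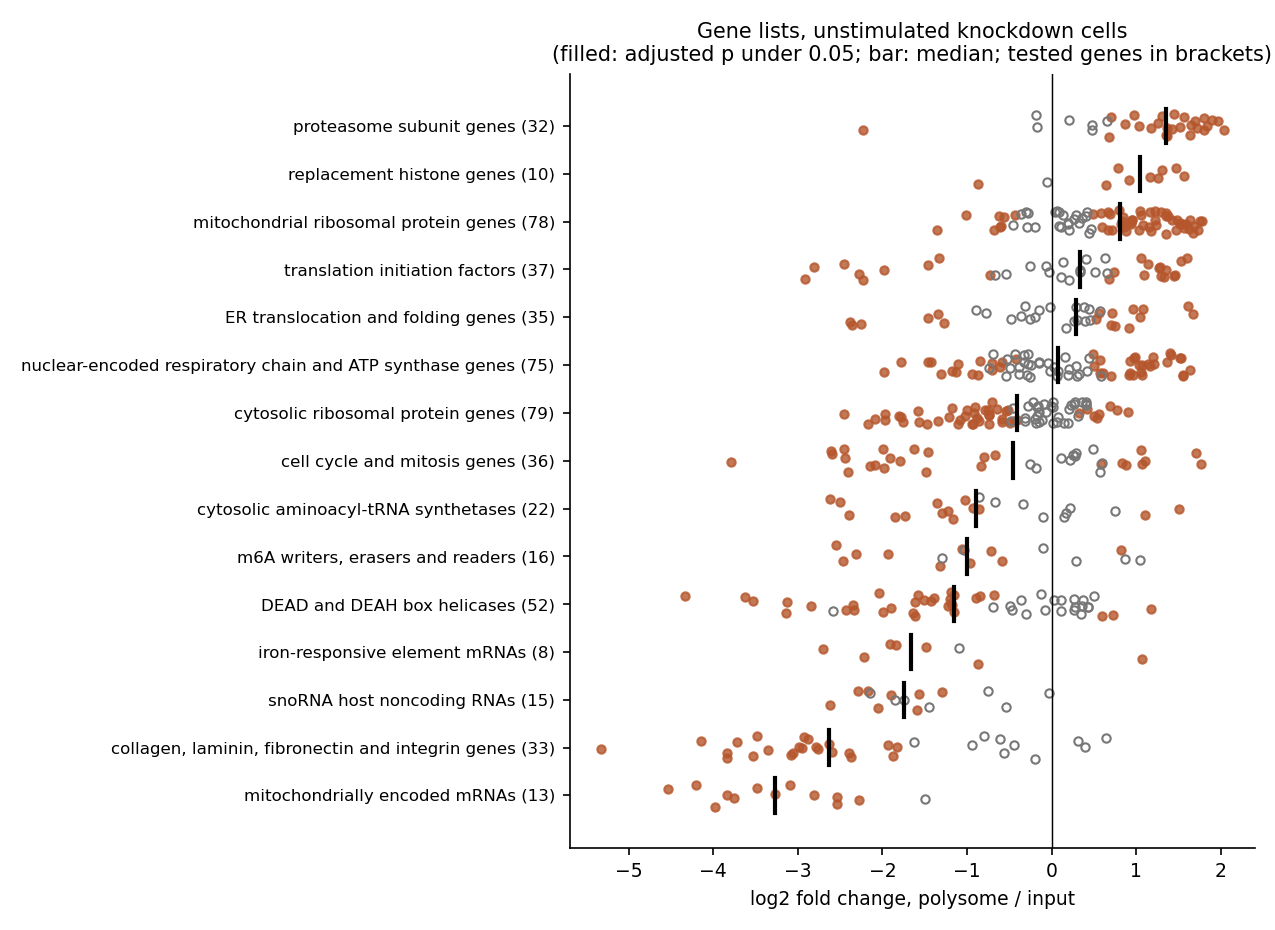
Log2 fold change of polysome over input for each tested gene of 15 lists in unstimulated knockdown cells; filled points passed the test and the black bar is the median. Proteasome subunits centre on 1.35, cytosolic ribosomal proteins on -0.41 and mitochondrially encoded mRNAs on -3.27.

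Of 8 mRNAs described in the literature as carrying an iron-responsive element (IRE), 6 were lower (75%, against 22.0% of all genes) and 1 higher, with a median of -1.66, and both ferritin genes, which have short coding sequences, were among the lower ones. IREs are hairpins with a CAGTG loop and an unpaired C, to which iron regulatory proteins bind when iron is low. In the 5′ UTR they block initiation, and in the 3′ UTR they protect the mRNA from decay. A search of the annotated transcripts on the sense strand looked for a C, 5 bases, CAGTG, any base and 5 bases that pair with the first 5, G-U pairs allowed. The sites of 4 listed genes are shown with the loop in capitals (GRCh38, GENCODE 29).
FTH1: cttcaaCAGTGCttgga
FTL: cttcaaCAGTGTttgga
SLC40A1: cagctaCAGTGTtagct
TFRC: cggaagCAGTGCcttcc
The FTH1 site lies at chr11:61967580-61967596 (minus strand), the FTL site at chr19:48965341-48965357 (plus) and the SLC40A1 site at chr2:189580667-189580683 (minus), all in the 5′ UTR. The TFRC site is the first of 4 in its 3′ UTR, at chr3:196050985-196051001 (minus). Of 13428 coding transcripts 194 (1.44%) held such a match somewhere, and of these 56 were lower and 29 higher, with a median of -0.37. Of all 13428 coding genes, 23.8% were lower and 19.9% higher, with a median of -0.10. The pattern found no match in the annotated transcripts used for CDC42BPA, EPAS1 and SLC11A2.

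FTH1, the heavy chain of ferritin, measured 1850, 2075, 1673, 1718 and 1903 CPM in input and 443, 374, 380.2, 478 and 774 CPM in polysome. FTL, the light chain, measured 1552, 1793, 1468, 1382 and 1612 CPM in input and 337, 258, 252, 337 and 499.6 CPM in polysome. For both chains every polysome library was below every input library, and replicate 5 was the highest in polysome. The differences were -1.91 ± 0.23 for FTH1 (adjusted p = 1.52e-08) and -2.21 ± 0.25 for FTL (adjusted p = 4.00e-09). Genes of the same decile of coding length had a median of 0.40, so these values were -2.31 and -2.62 relative to it. TFRC, the transferrin receptor, fell from 111 ± 27.1 CPM to 31.7 ± 14.4 CPM (-1.84 ± 0.31). SLC40A1, the iron exporter ferroportin, was barely detected and fell by 2.70 ± 0.79. EPAS1, a hypoxia-inducible factor, fell by 1.49 ± 0.29. SLC11A2, an iron transporter, was the 1 of the 8 that rose (1.07 ± 0.34), with overlapping groups of 12.3 ± 4.86 CPM and 25.6 ± 10 CPM, and its call was lost without polysome replicate 4 (adjusted p = 0.0585). CDC42BPA did not pass the test (-1.09 ± 0.46, adjusted p = 0.0589), and its polysome replicate 5, at 43.0 CPM, stood above the other 4. Without that library CDC42BPA passed, at -1.59 (adjusted p = 0.00556). The ferritin genes have processed pseudogenes, as the ribosomal protein genes do.

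Stress-response mRNAs whose main reading frame follows upstream reading frames (uORFs) are poorly translated in unstressed cells. Of 11 such genes 3 were lower and 0 higher (3 higher without polysome replicate 5), with a median of -0.63. The share lower, 27.3%, was near that of all genes, 22.0%. ATF4, the transcription factor of the integrated stress response, measured 299, 228, 239, 322 and 295 CPM in input and 72.1, 96.9, 107, 123 and 101 CPM in polysome, without overlap (-1.47 ± 0.19, and -2.05 relative to its decile of coding length). ATF5, its relative, fell by 0.90 ± 0.19, and SLC35A4, whose upstream frame encodes a microprotein, fell by 0.72 ± 0.19. Selenoprotein mRNAs read a UGA codon as selenocysteine. Of 18 tested 8 were lower (44.4%, against 22.0%) and 3 higher (16.7%, near 16.4%), with a median of -0.52. GPX4, the glutathione peroxidase that removes lipid peroxides, measured 372, 224, 329.8, 380.5 and 319 CPM in input and 62.6, 66.8, 78.1, 46.9 and 89.5 CPM in polysome (-2.25 ± 0.29). GPX1 fell by 2.11 ± 0.41 and the small SELENOW fell by 3.11 ± 0.39. SELENOS, of the endoplasmic reticulum (ER), rose by 1.22 ± 0.26.

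Genes of protein entry into the ER and of folding there were higher in 11 of 35 (31.4%, against 16.4% of all genes) and lower in 6 (17.1%, against 22.0%), with a median of 0.29. With voom 10 were lower. The 11 became 6 or 7 without input replicate 1, 4 or 5 or polysome replicate 4. SPCS2, a signal peptidase subunit, and SRPRB, a subunit of the receptor for signal recognition particle, rose by 1.67 ± 0.24 and 1.61 ± 0.28. The 2 members of highest TPM in input did not pass the test, with differences of 0.57 ± 0.37 and 0.45 ± 0.39 (adjusted p = 0.241 and 0.394). The chaperones HSPA5 (BiP) and HSP90B1 (GRP94) were among the lower ones. HSPA5 measured 374, 689, 494, 361 and 392 CPM in input and 119.5, 75.1, 75.6, 105 and 75.3 CPM in polysome (-2.36 ± 0.28), and HSP90B1 fell by 2.38 ± 0.28. Relative to their deciles of coding length these were -2.17 and -1.93. Of 33 collagen, laminin, fibronectin and integrin genes, which encode the matrix and its receptors, 23 were lower (69.7%, against 22.0%) and 0 higher. The median was -2.64, and -1.13 relative to coding length. Their median coding length of 4392 nt fell in the longest decile, which runs from 3429 to 26769 nt, so -1.13 is not free of length. COL12A1, a fibril-associated collagen, measured 246, 356, 622, 342 and 267 CPM in input and 24.9, 21.8, 24.3, 13.6 and 19.1 CPM in polysome (-4.14 ± 0.43). FN1, fibronectin, fell from 700 ± 203 CPM to 52.7 ± 10.7 CPM (-3.72 ± 0.37), and ITGA3, an integrin that binds laminin, fell by 1.88 ± 0.39. ITGB1, the common integrin beta chain, differed by -0.44 ± 0.24 and did not pass the test (adjusted p = 0.142).

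Cytoskeletal genes went both ways, with 11 of 32 higher (34.4%, against 16.4% of all genes) and 10 lower (31.2%, against 22.0%). MYH9, a nonmuscle myosin heavy chain, measured 3981, 4149, 2771, 3547 and 3592 CPM in input and 254, 246, 297, 283 and 146 CPM in polysome, without overlap (-3.88 ± 0.27). TLN1, talin, which links integrins to actin, fell by 3.77 ± 0.20. The myosin light chain gene MYL12A rose by 1.50 ± 0.14, the tropomyosin gene TPM3 by 1.64 ± 0.21 and ACTB by 0.73 ± 0.21. The heavy and the light chain of myosin thus stood on opposite sides. The intermediate filament genes KRT8 and VIM fell (log2 fold changes -1.51 ± 0.23 and -1.25 ± 0.16), at coding lengths of 1449 and 1398 nt whose decile had a median of 0.09.

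Of 17 glycolytic enzymes, 4 were higher (7 without polysome replicate 5) and 6 lower (23.5% and 35.3%, against 16.4% and 22.0% of all genes). PGAM1 and TPI1, enzymes of the later and middle steps, rose from 907 ± 116 CPM to 2888 ± 692 CPM and from 1180 ± 155 CPM to 3413 ± 554 CPM. ENO1, enolase, fell by 0.81 ± 0.25, a call lost without polysome replicate 5 (adjusted p = 0.0935), and HK2, a hexokinase at the head of the pathway, fell by 1.85 ± 0.37. Of 27 genes of cholesterol and fatty acid synthesis, 8 were higher and 8 lower, 29.6% each, against 16.4% and 22.0% of all genes. EBP and HSD17B7 of the late cholesterol pathway rose by 1.55 ± 0.28 and 1.47 ± 0.27. FASN, fatty acid synthase, fell from 862 ± 200.5 CPM to 61.9 ± 20.8 CPM (-3.79 ± 0.31), and ACACA, the carboxylase before it, fell by 3.26 ± 0.40. Of 9 polyamine pathway genes 1 was higher and 3 were lower (11.1% and 33.3%, against 16.4% and 22.0% of all genes).

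Cell cycle genes were lower in 18 of 36 (50%, against 22.0% of all genes) and higher in 8 (22.2%, against 16.4%). The median was -0.46, and -0.18 relative to coding length. PCNA, the sliding clamp of DNA polymerase, measured 496, 518, 592, 555 and 558 CPM in input and 1711, 2294, 1564, 2138 and 1164 CPM in polysome (1.71 ± 0.15). CDK2, a cyclin-dependent kinase, measured 189, 194, 186, 189 and 191 CPM in input and 537, 824, 652, 852 and 369.5 CPM in polysome (1.77 ± 0.15). For both, the lowest polysome library was replicate 5 and lay above every input library. MCM2, of the replicative helicase, fell by 2.61 ± 0.20. KIF11, the motor that separates spindle poles, fell by 3.79 ± 0.72, and stood at -5.58 without polysome replicate 2. Replacement histones, which are made throughout the cell cycle from polyadenylated mRNAs, were higher in 8 of 10 (80.0%, against 16.4%) and lower in 1, with a median of 1.04. H1-10 rose from 476 ± 48.4 CPM to 1403 ± 436 CPM and MACROH2A1 by 1.47 ± 0.14, and the lower one was H2AZ2 (-0.87 ± 0.20). Replication-dependent histone mRNAs end in a stem-loop in place of a poly(A) tail, and the protocol names poly(A) selection, beside kits from 2 makers without saying which libraries each served. Of 63 tested 5 were higher (7.94%, under the 16.4% of all genes; 9 without input replicate 1) and 0 lower, and H1-2 rose by 1.74 ± 0.25. Of 24 immediate early genes 1 was lower (4.17%, under the 22.0% of all genes) and 0 higher. The lower one was JUND, a gene of a 1041-nt coding sequence, at -1.21 ± 0.26.

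Zinc finger genes of the ZNF family were lower in 120 of 484 (24.8%, near the 22.0% of all genes) and higher in 18 (3.72% against 16.4%). Their median was -0.52, and -0.30 relative to coding length. The count of lower genes was 195 with voom and 53 at 10 CPM or more, and that of higher genes 29 with the length offset and 37 in the 8 deeper libraries. DEAD and DEAH box helicases were lower in 29 of 52 (55.8%, against 22.0%) and higher in 3 (5.77%, against 16.4%; 7 without polysome replicate 5). Their median was -1.16, and -0.23 relative to coding length. DDX41 rose most of these, by 1.18 ± 0.22. Centrosomal CEP genes were lower in 13 of 36 (36.1%, against 22.0%) and higher in 0, with a median of -0.73 that was -0.01 relative to coding length. Of 16 m6A writers, erasers and readers 9 were lower (56.2%, against 22.0%) and 1 higher. The median was -1.0, and -0.74 relative to coding length. VIRMA, a scaffold of the m6A writer, and YTHDC2, a reader with a helicase domain, fell (log2 fold changes -2.47 ± 0.37 and -2.55 ± 0.43), and the reader YTHDF1 rose by 0.82 ± 0.12.

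The IGF2BP family itself was measured in both fractions. IGF2BP3 measured 22, 25.5, 25.9, 21.8 and 29.1 CPM in input and 6.98, 9.09, 8.28, 5.35 and 26.4 CPM in polysome (-1.24 ± 0.39, adjusted p = 0.0092). Polysome replicate 5 lay within the input range and the other 4 below it. IGF2BP1 (-0.99 ± 0.43, adjusted p = 0.0629) and IGF2BP2 (-0.02 ± 0.25, adjusted p = 0.964) did not pass the test, and the sign for IGF2BP2 was positive with DESeq2 size factors and without input replicate 3 or polysome replicate 1, 3 or 4. Without polysome replicate 1, IGF2BP1 passed, at -1.39 (adjusted p = 0.0114). Of 14 tested mRNAs described in the literature as bound by IGF2BP proteins, 3 were higher and 2 lower (21.4% and 14.3%, against 16.4% and 22.0% of all genes), with a median of 0.14 that was -0.36 with voom, -0.23 without polysome replicate 1 and -0.05 without polysome replicate 5. PDPN, podoplanin, rose by 1.21 ± 0.28, and CTNNB1, beta-catenin, fell from 245 ± 18.2 CPM to 56.6 ± 7.78 CPM (-2.11 ± 0.17).

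Among components of IL-13 signalling 5 of 18 were lower (27.8%, near the 22.0% of all genes) and 1 higher (3 without polysome replicate 5). JAK1, a kinase of the receptor complex, measured 127, 112, 133, 132 and 137 CPM in input and 22.4, 27.9, 17.5, 9.99 and 3.91 CPM in polysome (-2.93 ± 0.38). STAT3 fell by 1.69 ± 0.20 and the phosphatase gene PTPN1 rose by 0.62 ± 0.19.

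The labelled cell type was checked against its markers in input. Of 14 epithelial markers 10 were at 10 CPM or more, KRT8 at 1073 CPM and KRT18 at 563 CPM among them, while EPCAM, CDH1 and CLDN4 were under 1 CPM. Of 12 mesenchymal markers 6 were at 10 CPM or more, VIM at 1940 CPM, SPARC at 1223 CPM and FN1 at 700 CPM among them. None was under 1 CPM, and the lowest were SNAI1 at 1.82 CPM and S100A4 at 1.74 CPM. All 13 measured airway lineage markers were under 1 CPM, and SCGB3A1 and SFTPC, of secretory and alveolar cells, were at 0. Of 8 leukocyte and blood genes 6 were under 1 CPM in input, PTPRC, the common leukocyte antigen, and CD3E being at 0 in both fractions, while CD14 and CD68 stood at 20.4 and 13.6 CPM. Of 6 endothelial genes 5 were under 1 CPM, KDR being at 0 in both fractions, while CDH5 stood at 8.33 CPM. The part of these markers in the results was not tested.

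Knockdown and control lines were compared for the polysome difference itself. In unstimulated control cells 2910 genes (17.4%) were higher and 3812 (22.8%) lower, against 2750 and 3686 in knockdown cells. The interaction term called 0 of 16735 genes (0.0%) by edgeR, with 283 (1.69%) at an unadjusted p under 0.05, 10 called by DESeq2 and 0 by limma voom. Where no gene differs, a share of 0.05 would be below that unadjusted threshold. The median SE of the term was 0.49 on the log2 scale. The 2 sets of differences come from separate libraries. Across 8920 genes of at least 10 CPM, their Pearson's r was 0.975, as a description across genes. Over all 16735 genes it was 0.705, with a Spearman's rho of 0.829. FTL stood at -2.21 in knockdown and -2.61 in control cells, FTH1 at -1.91 and -2.26, PRKDC at -5.34 and -5.33, PRDX1 at 2.16 and 2.22, and EEF2 at -1.85 and -1.73. IGF2BP3 stood at -1.24 and -1.65.

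With IL-13, knockdown cells had 2677 genes (16.0%) higher and 3905 (23.3%) lower in polysome. The interaction with the cytokine called 0 genes (0.0%) by edgeR, with 219 (1.31%) at an unadjusted p under 0.05, 5 called by DESeq2 and 0 by limma voom. Pearson's r between the 2 sets of differences was 0.98 across the same 8920 genes. Over all 16735 genes it was 0.717, with a Spearman's rho of 0.831. Proteasome subunits had a median of 1.36 with IL-13, cytosolic ribosomal protein genes one of -0.60 and mitochondrially encoded mRNAs one of -3.23. JAK1 stood at -2.71 with IL-13 and ATF4 at -1.49.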

How the data were processed

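RNA was measured in 40 libraries, of which 10 enter the main comparison. The authors deposited estimated counts of 62263 genes, which have decimals and whose sums differ between libraries (per the file headers). The deposited TPM, scaled by the authors for length and depth, served to compare levels between genes. The submitters' processing notes name MultiQC, Trimmomatic, Salmon and DESeq2, without versions or roles; a genome build is not given in the sources used here. The design had assumed whole counts, so the deposited estimated counts were rounded.

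The filter was filterByExpr with the 8 groups, which left 16735 genes (at least 99.91% of the counts of each library), scaled by TMM. All 40 libraries entered 1 quasi-likelihood fit, a mean for each group, in edgeR 4.0.16 in R 4.3.3, with 32 residual degrees of freedom. Two-sided p-values were Benjamini-Hochberg adjusted across the 16735 genes. The SE was derived from the log2 fold change and its F statistic. The same fit gave the control and IL-13 comparisons and the interaction terms. Only the edgeR fit of the main comparison was tried on simulated counts, with fewer genes changed than were called here. The interactions, the lists and the other methods were not covered. Counts of no library pair agreed within sampling noise (chi-square over its degrees of freedom at least 16.18). Nothing in the labels says that replicates came from separate cultures, so p-values may measure technical spread.

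Coding length, class and GC content came from 1 transcript per gene of GENCODE 29 (GRCh38), matched without the version of the ID (96.0% of tested genes), and start sequences from RefSeq (GRCh38.p14). Estimates from a transcript quantifier can list a gene at 0 when its reads go to a similar transcript, so such zeros are given as listed. Lists were described by counts, shares and medians and were not tested. Genes were named by a rule: IGF2BP1, IGF2BP2, IGF2BP3, MALAT1 and NEAT1; the 12 called genes of largest difference in each direction that reached a mean of 20 CPM in either fraction without overlapping libraries; and per list up to 2 called members of largest difference in each direction and the 2 members of highest TPM in input. GOLGB1, RPS12, RPLP1, FAU, MT-ND6, TFRC, EPAS1 and CDC42BPA fall outside the rule and were chosen after their values were seen. Of the 175 genes the rule named, 117 are given in the text. The lists, the comparison and the named groups were chosen with earlier results of these data known. Alternatives were DESeq2 size factors, the Wald test of DESeq2 1.42.0, voom with quality weights from limma 3.58.1, other filters, other sets of libraries, the culture as a block, an offset for length from the deposited values, and leaving out each library. Taking off the median of the decile of coding length and using the 8 deeper libraries alone were chosen after seeing the data. Coding lengths still vary within a decile, most in the first and the last, so values relative to coding length keep part of the length relation. Floors cover counting error only, while SE and SD also hold the spread between libraries.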

Additional observations from a re-analysis of the deposited data

Results flagged for a closer look

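Of 264 groups of 5 values examined, for the genes named above and for the shares by library, 25 held 1 library set apart from the other 4 by more than 0.71 of the range of the group, where chance gives about 1 in 20, or 13. Polysome libraries accounted for 14 of these and input libraries for 11. Polysome replicate 5, the shallowest library with 1816848 counts, was the library set apart in 11. The part of depth in these values was not tested.

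In polysome replicate 5, cytosolic ribosomal protein mRNAs took 7.07% of the counts, against 5.03% to 5.14% in the other 4. The same library was the highest for IGF2BP3 (26.4 CPM), MALAT1 (76.3 CPM), GAS5 (19.1 CPM), RPLP1 (747 CPM), MYL12A (1070 CPM), FTH1 (774 CPM) and CDC42BPA (43.0 CPM). It was the lowest for FASN (25.4 CPM, others from 64.6 CPM), KRT8 (214 CPM, others from 389 CPM) and AARS1, which was listed at 0 there and at 36 to 42.7 CPM in the other 4. Polysome replicate 2 was high for 2 genes of the mitotic apparatus, KIF11 at 23.2 CPM against at most 5.25 CPM and CEP192 at 2.25 CPM against at most 0.457 CPM. AHNAK2 was listed at 0 in polysome replicate 1, where the other 4 held 1.46 to 1.96 CPM.

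In input, replicate 2 was the highest for NECAP1 (17.8 CPM against at most 5.18 CPM), FN1 (1050 CPM against at most 669 CPM), QARS1 (338 CPM), MACROH2A1 (365 CPM) and SELENOS (55.0 CPM). Input replicate 1 was the highest for DPM1 (59.9 CPM) and for the short ribosomal protein mRNAs RPL41 (2150 CPM, others up to 1780 CPM) and RPS29 (498 CPM, others up to 372 CPM). NDUFV1 was low in input replicate 3, at 155 CPM against at least 207 CPM. Input replicate 4 was high for EPAS1 (346 CPM against at most 227 CPM) and had 22700 genes with a count, against at most 20400 in the other 4.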

How the results depend on the processing

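Genes called higher numbered 2471 to 3266 and genes called lower 3270 to 3513 when 1 library was left out, and no gene was called in the opposite direction under any other setting except 1 with the length offset. Of the 120 called genes named above, 115 kept their call in all 10 fits without 1 library and 114 under all other settings. Outside the fits without 1 library, RPL7A and EEF1D lost it with no filter (adjusted p = 0.121 and 0.115) and in the 10 libraries with the block, EEF1D with the block in all libraries, and FAU with no filter. SLC35A4 and ENO1 lost it without the shallow polysome libraries of the series, those under 5000000 counts, and GOLGB1 with voom (adjusted p = 0.254). The median of all genes moved from -0.20 to -0.14 with DESeq2 size factors, -0.07 with the length offset and -0.30 with the culture as a block. Of 651 list medians by setting, 597 stayed within 1 SD over the polysome libraries. The cause of the shifts below was not tested.

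Of the interactions, the DESeq2 Wald test called 10 genes for the line and 5 for IL-13, and leaving out 1 library gave 0 to 1 and 0 to 0. IGF2BP2 was 0.053 with DESeq2 size factors and 0.053 by the DESeq2 Wald test. It was 0.074 in the 10 libraries alone, 0.030 there with a block, 0.018 without the shallow libraries, 0.036 in the 8 deeper libraries, and -0.13 to 0.079 leaving out 1. The knockdown difference of IGF2BP3 ranged from -0.60 to -0.30 in input and from -0.37 to 0.21 in polysome. The median of IGF2BP-bound mRNAs was -0.36 with voom, 0.54 at 10 CPM or more, 0.63 in the 10 libraries alone, 0.38 there with a block, -0.27 with the block in all libraries, -0.11 without the shallow libraries, -0.080 in the 8 deeper ones and 0.34 with the length offset.

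With voom, medians were -1.88 for IRE mRNAs, -0.66 for selenoproteins, -0.073 for epithelial genes, -0.56 for mesenchymal genes and 0.57 for replication-dependent histones. With no filter, nuclear long noncoding RNAs stood at -1.22 and DEAD and DEAH box helicases at -0.92. At 10 CPM or more, medians were -1.61 for nuclear long noncoding RNAs, -2.11 for snoRNA hosts, -2.86 for collagen and related genes, -0.36 for polyamine genes, -0.35 for selenoproteins, -0.75 for epithelial genes, -0.94 for mesenchymal genes and -0.82 for the helicases. The third and the longest decile of coding length were then 0.79 and -1.73, and the longest was -1.57 with DESeq2 size factors.

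Replicate numbers did not pair the fractions, with correlations of same-numbered deviations from -0.234 to 0.223 and 0 of 5 samples closest to their own number. In unstimulated control cells these correlations were 0.0194 to 0.621, with 3 of 5 closest to their own number. With the culture as a block 6147 genes were called, against 6436, and medians were -1.20 for nuclear long noncoding RNAs, -2.08 for snoRNA hosts and -0.58 for mesenchymal genes. In the 10 libraries alone, medians were -0.21 for selenoproteins, 0.27 for epithelial genes and 0.90 for mitochondrial ribosomal proteins. With a replicate block there, 5711 genes were called, with -0.24 for selenoproteins, 0.25 for epithelial genes and 0.64 for replication-dependent histones.

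The length offset gave -0.76 for aminoacyl-tRNA synthetases, -0.30 for selenoproteins, -0.87 for m6A genes, -0.21 for mesenchymal genes, 0.89 for mitochondrial ribosomal proteins and -0.98 for the helicases. Without the shallow libraries, m6A genes stood at -0.73, epithelial genes at -0.075 and the helicases at -0.88. Deciles 3, 4, 5, 7, 8 and 10 of coding length were then 0.80, 0.70, 0.44, -0.055, -0.35 and -1.56. In the 8 deeper libraries, m6A genes stood at -0.71, epithelial genes at -0.073, the helicases at -0.86 and replication-dependent histones at 0.55. Deciles 3 to 8 were then 0.85, 0.73, 0.47, 0.24, -0.028 and -0.32 and the longest -1.55. Leaving out 1 library gave -0.23 to 0.23 for IGF2BP-bound mRNAs, -0.75 to -0.12 for epithelial genes, -1.03 to -0.76 for the synthetases and -1.06 to -0.77 for m6A genes. It gave -1.17 to -0.91 for the helicases, 0.19 to 0.87 for replication-dependent histones and -0.57 to -0.40 for selenoproteins.

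Depth limits low genes most, since 1 count in polysome replicate 5 was worth 0.489 CPM.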
